A study of Mus musculus with 16 samples.

Results

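Fatty acid binding proteins are small cytosolic proteins that hold long-chain fatty acids and other lipids in a barrel-shaped pocket and carry them between membranes, enzymes and the nucleus. CD36 is a membrane protein that takes up long-chain fatty acids and oxidised lipoproteins at the cell surface. In the liver, hepatocytes make mainly Fabp1, whereas Fabp4 is best known from adipocytes, endothelial cells and macrophages, Fabp5 from epidermis, macrophages and other cells, and Fabp2 from the absorptive cells of the small intestine. Several of these genes are known targets of peroxisome proliferator-activated receptors (PPARs), nuclear receptors that fatty acids activate.

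The 5 genes described here, Fabp1, Fabp2, Fabp4, Fabp5 and Cd36, were taken by symbol from a table of 24082 genes and each had 1 Ensembl entry. They were chosen by family and with their IMC and ethanol differences in these libraries known, so those differences are given as a description, with no p-value, and the members called are counted once, beside the share of all genes called. All 5 passed the filter on low values (10 or more in 4 or more libraries), as did 12543 genes in all, which were tested. Liver RNA was sequenced from 16 female C57BL6/J mice, 9 to 11 weeks old, 4 in each of 4 groups. Pair vehicle and Pair IMC mice received an isocaloric control liquid diet, in which maltose dextrin replaced ethanol, in amounts matched to the ethanol-fed mice. EtOH vehicle and EtOH IMC mice received the Lieber-DeCarli liquid diet with ethanol raised stepwise to 6% (vol/vol) over 25 days. IMC (iodomethylcholine), an inhibitor of the bacterial enzyme that makes trimethylamine from choline, was given in the diet at 0.06% (wt/wt). Each group is 4 individual mice of 1 strain and sex, and whole liver was used, so fewer cells of a type and less RNA per cell cannot be told apart. By the study's account mice given both IMC and ethanol ate less and weighed less, so that lower intake and the combined treatment cannot be told apart in EtOH IMC. A figure legend of the study also marks a difference in body weight between pair-fed mice with and without IMC. That difference and IMC cannot be told apart in Pair IMC. Intake of the Pair groups was not tested here.

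The libraries held between 9632659 and 12601199 reads on genes. Values are read counts rescaled by a median ratio over the 16 libraries, called rescaled reads below, and differences are of group means of log2(value + 1) with the standard error (SE). The libraries numbered 1 to 8 are Pair IMC and EtOH vehicle. Those numbered 9 to 16 are Pair vehicle and EtOH IMC. Within either diet the numbering and IMC therefore cannot be told apart. Nor can the numbering and ethanol within vehicle mice or within IMC mice. The difference of the IMC effect between diets cannot be told apart from the numbering either. Albumin (Alb), the defining hepatocyte gene, held at least 798703 reads in each library. Library 11 of EtOH IMC stood apart, with a root mean square log2 distance of 0.418 over tested genes from the mean of the other 3 mice of its group, against 0.360 to 0.374 for those 3. Library 16 of Pair vehicle stood at 0.461 against 0.366 to 0.402 in its group, and library 8 of Pair IMC at 0.4204 against 0.325 to 0.357. In library 11 the 6 skeletal muscle markers summed to 1640 rescaled reads, against 5.04 to 18.1 in the other 15 libraries.

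The 250 bases before the RefSeq transcription start are shown for Fabp1 and Fabp2, the pair with the highest level per length in Pair vehicle, because they differ in the short motifs searched. Windows on GRCm38.p6 were found in RefSeq for 3 of the 5 genes, Fabp1, Fabp2 and Cd36. The Fabp4 and Fabp5 windows were not used here. Capitals mark AGGTCA (or its complement TGACCT), a core site of nuclear receptors such as PPARs and HNF4, GTTAAT (or ATTAAC), an arm of the HNF1 site, and TATAAA (or TTTATA), the TATA box. The Fabp1 window lies at chr6:71199629-71199878 and the Fabp2 window at chr3:122894822-122895071, both on the plus strand.
Fabp1: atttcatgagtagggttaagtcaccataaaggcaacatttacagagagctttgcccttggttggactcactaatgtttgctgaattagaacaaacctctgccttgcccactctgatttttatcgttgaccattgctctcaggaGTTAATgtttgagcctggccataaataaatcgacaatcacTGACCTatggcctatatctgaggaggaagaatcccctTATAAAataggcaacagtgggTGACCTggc
Fabp2: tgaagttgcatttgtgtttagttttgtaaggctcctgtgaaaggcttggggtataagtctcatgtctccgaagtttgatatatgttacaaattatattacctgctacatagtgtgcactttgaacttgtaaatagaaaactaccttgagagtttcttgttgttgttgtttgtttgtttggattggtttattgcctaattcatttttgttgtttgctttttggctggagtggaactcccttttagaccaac

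The Fabp1 window held TGACCT at positions -67 and -9, GTTAAT at -107 and TATAAA at -30, counted from the start, with no overlap between them. The Fabp2 window held none of these letters on either strand, and the Cd36 window, at chr5:17835897-17836146 on the minus strand, held TGACCT at -228. In the GENCODE gene models the Cd36 window lies within the gene (17781690 to 17888801). The Fabp1 window runs past the GENCODE gene start at 71199827. Over 32851 windows of the same length, AGGTCA stood in 14.02%, GTTAAT in 6.43% and TATAAA in 12.4%. A match is a stretch of letters and was not tested as a binding site.

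Fabp1, the main fatty acid binding protein of hepatocytes, lies on chromosome 6 (71199827 to 71205023, plus strand; GENCODE vM21 on GRCm38) and had by far the highest level. The Fabp1 value was 28937, 24385, 33669 and 48326 rescaled reads in the 4 Pair vehicle mice and 34494, 25923, 31840.0 and 23068 in the 4 Pair IMC mice. It was 35291, 26802, 24998 and 27139 in EtOH vehicle and 12173, 25794, 17498 and 25187 in EtOH IMC. The lowest values were in 2 of the EtOH IMC mice, and the other 2 of that group lay within the range of EtOH vehicle. Means were 33829 ± 10381 (SD, n = 4) in Pair vehicle, 28831 ± 5253 in Pair IMC, 28557 ± 4586 in EtOH vehicle and 20163 ± 6529 in EtOH IMC. The log2 difference with IMC was -0.20 (SE 0.23) in pair-fed and -0.55 (SE 0.23) in ethanol-fed mice. With ethanol it was -0.21 (SE 0.23) in vehicle and -0.56 (SE 0.23) in IMC mice. In each of these 4 comparisons the groups overlapped. With 1 library left out, the IMC difference ranged from -0.34 to -0.01 in pair-fed mice, nearest 0 without library 16, and from -0.69 to -0.33 in ethanol-fed mice, nearest 0 without library 9. The ethanol difference then ranged from -0.35 to -0.02 in vehicle mice and from -0.70 to -0.34 in IMC mice, nearest 0 without the same libraries. On the deposited values, before rescaling, the ethanol difference was -0.02 in vehicle mice and -0.37 in IMC mice. Without libraries 8, 11 and 16 together the IMC difference in pair-fed mice was 0.09, on the other side of 0.

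Fabp2, the intestinal fatty acid binding protein, lies on chromosome 3 (122895072 to 122899506, plus strand) and was lower with IMC on either diet, with 1 exception among the mice. The Fabp2 value was 997, 941, 1028 and 1083 rescaled reads in Pair vehicle and 620.4, 453, 533 and 569 in Pair IMC. It was 1000.1, 914, 1029.8 and 946 in EtOH vehicle and 235, 1257, 187 and 327 in EtOH IMC. The Pair groups did not overlap. Between the ethanol groups 3 IMC mice lay below all vehicle mice, and library 11 lay above all of them. Means were 1012 ± 59.5 (SD, n = 4) in Pair vehicle, 544 ± 70.6 in Pair IMC, 972 ± 52.3 in EtOH vehicle and 502 ± 507 in EtOH IMC. The log2 difference with IMC was -0.90 (SE 0.37) in pair-fed and -1.40 (SE 0.37) in ethanol-fed mice, and -1.99 in ethanol-fed mice without library 11. By edgeR, which compares mean counts, the difference in ethanol-fed mice was -0.95, while DESeq2 gave -0.96 and no adjusted p-value. Without library 15, a fit chosen after seeing the data, edgeR gave -0.79. With ethanol the log2 difference was -0.06 (SE 0.37) in vehicle mice and -0.56 (SE 0.37) in IMC mice, and -1.15 in IMC mice without library 11. On the deposited values, before rescaling, it was 0.13 in vehicle mice and -0.36 in IMC mice. In IMC mice it was -0.10 by edgeR, -0.12 by DESeq2 and 0.06 by edgeR without library 15. On log2 values without library 15 it was -0.50, so its sign in IMC mice turned only by edgeR and without that library. Library 11 also held the muscle transcripts described above, and Fabp2 is an enterocyte gene elsewhere. The 10 other enterocyte markers of a fixed list summed to 137 to 246 rescaled reads in EtOH IMC and 177 to 246 in EtOH vehicle, with sucrase-isomaltase (Sis) at 0 in 15 of 16 libraries. Their sum was 213 in library 11 and 246 in library 15, whose Fabp2 value was 327. The part of muscle or gut RNA in the Fabp2 value of library 11 was not tested.

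Fabp5, the epidermal fatty acid binding protein, lies on chromosome 3 (10012548 to 10016607, plus strand) and had the widest range of group means of the 5 genes by ratio. The Fabp5 value was 359, 554, 376 and 1339 rescaled reads in Pair vehicle and 1274, 926, 1182 and 3504 in Pair IMC. It was 151, 176, 147 and 167 in EtOH vehicle and 48.5, 50.3, 54.1 and 74.1 in EtOH IMC. The order of the groups was Pair IMC, Pair vehicle, EtOH vehicle and EtOH IMC, and the Pair groups overlapped through library 16 of Pair vehicle, whereas each other pair of neighbours was separate. Means were 657 ± 463 (SD, n = 4) in Pair vehicle, 1721 ± 1198 in Pair IMC, 160.4 ± 13.7 in EtOH vehicle and 56.7 ± 11.8 in EtOH IMC. The SD was 70.5% and 69.6% of the mean in the Pair groups and 8.54% and 20.9% in the EtOH groups, but 25.1% in Pair vehicle without library 16 and 16.01% in Pair IMC without library 8. The log2 difference with IMC was 1.40 (SE 0.37) in pair-fed mice and -1.5 (SE 0.37) in ethanol-fed mice, and the difference between these was -2.90 (SE 0.53). With ethanol the log2 difference was -1.81 (SE 0.37) in vehicle mice and -4.71 (SE 0.37) in IMC mice, where the mean was 30.3-fold lower in EtOH IMC than in Pair IMC, and 19.9-fold lower without library 8 of Pair IMC. The value in pair-fed mice ranged from 0.99 to 1.82 when 1 library was left out, and it was 1.40 without libraries 8, 11 and 16.

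**Figure D1:**
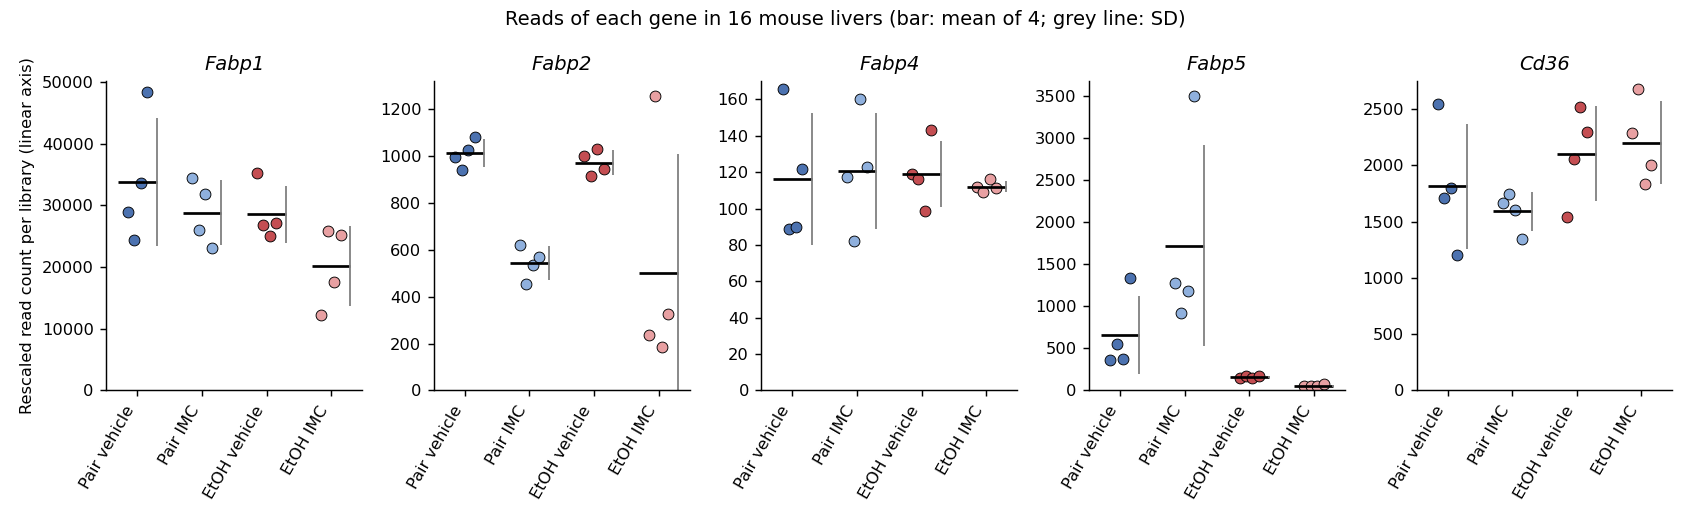
Rescaled read counts of Fabp1, Fabp2, Fabp4, Fabp5 and Cd36 (linear axes from 0) in each of 16 mice, by group. Points are mice, black bars are means of 4 and grey lines are 1 SD, drawn no lower than 0. Fabp5 lies between 48.5 and 74.1 in EtOH IMC, Fabp2 has 1 EtOH IMC mouse at 1257, and Fabp4 and Fabp1 groups overlap.

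Of all 50-base stretches of the members' GENCODE transcripts, 198 of 3611 (5.48%) of Fabp5 also occurred in transcripts of 5 other genes, Fabp5l2, Gm13998, Gm14328, Gm6100 and Gm6166. For the other 4 members none was shared. Reads of Fabp5 could in part be placed at such copies, so its level is uncertain by what the counting did with them. Defining markers of the cells that Fabp5 could come from were compared with it. Adipocyte markers Adipoq and Plin1 had at most 11 and 9 reads in a library, and Gpnmb and Trem2, markers of lipid-laden macrophages, at most 18 and 14. The 8 adipocyte markers summed to 197 to 205 rescaled reads in Pair vehicle, 104 to 169.7 in Pair IMC, 169.5 to 209 in EtOH vehicle and 89.5 to 132 in EtOH IMC. The 8 lipid-associated macrophage markers summed to 1010 to 1328 in Pair vehicle, 1431 to 1479 in Pair IMC, 1197 to 1340.4 in EtOH vehicle and 1176 to 1488 in EtOH IMC. Among these macrophage markers Cd9 rose with IMC in pair-fed mice, and with IMC in ethanol-fed mice Cd9 and Cd63 rose and Mmp12 and Itgax fell. With ethanol Lpl and Mmp12 rose in vehicle mice, and in IMC mice Cd63 rose and Cd9 fell. The 10 Kupffer cell and macrophage markers summed to 8762 in library 16 of Pair vehicle, the mouse of that group with the highest Fabp5, against 3019 to 4391 in the other 3. In library 8 of Pair IMC, the mouse with the highest Fabp5 of all, they summed to 4578, within the 3598 to 5251 of its group. They summed to 4980 to 6767 in EtOH vehicle and 3658 to 5797 in EtOH IMC, where Fabp5 was lower than in the Pair groups. The part of these cells in the Fabp5 values was not tested.

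Fabp4, the adipocyte fatty acid binding protein, lies 187480 bases from the end of Fabp5 on chromosome 3 (10204088 to 10208576, minus strand) and had a much narrower range. The Fabp4 value was 166, 88.5, 89.7 and 122 rescaled reads in Pair vehicle and 118, 82.3, 160.2 and 123 in Pair IMC. It was 119, 116, 98.9 and 143 in EtOH vehicle and 112, 109, 116 and 111 in EtOH IMC. All groups overlapped, with means between 112 ± 2.97 and 121 ± 31.9 (SD, n = 4). The 4 log2 differences with IMC or ethanol lay between -0.08 and 0.07 (SE 0.20), which does not show that the groups were alike. On the deposited scale the ethanol difference was 0.26 in vehicle mice and 0.12 in IMC mice. Beside Fabp4, the counted genes in the 227601 bases between Fabp5 and Fabp12 were Pmp2, Fabp9 and Gm9833. Pmp2 and Fabp9 had 0 reads over the 16 libraries, Gm9833 had 121 and Fabp12 itself had 32. Other annotated genes in this stretch were not among those counted. The endothelial markers Pecam1 and Stab2 had 194 to 406 and 611 to 1320 reads in a library. The 10 endothelial markers summed to 3705 to 4458 rescaled reads in Pair vehicle, 3815 to 4728 in Pair IMC, 4431 to 5088 in EtOH vehicle and 3763 to 4999 in EtOH IMC. Their part in the Fabp4 values was not tested.

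Cd36 lies on chromosome 5 (17781690 to 17888801, minus strand). The Cd36 value was 2542, 1708, 1798 and 1201 rescaled reads in Pair vehicle and 1666, 1742, 1604 and 1344 in Pair IMC. It was 1540.2, 2056, 2517 and 2299 in EtOH vehicle and 2284, 2674, 1830.0 and 2004 in EtOH IMC. Pair IMC and EtOH IMC did not overlap, and the groups of the other 3 comparisons did. Means were 1812 ± 553 (SD, n = 4), 1589 ± 173, 2103 ± 419.9 and 2198 ± 368 in Pair vehicle, Pair IMC, EtOH vehicle and EtOH IMC. The log2 difference with ethanol was 0.24 (SE 0.19) in vehicle mice and 0.46 (SE 0.19) in IMC mice, and with IMC it was -0.15 (SE 0.19) and 0.07 (SE 0.19) in pair-fed and ethanol-fed mice. On the deposited scale the ethanol difference in IMC mice was 0.65. In vehicle mice it ranged from 0.06 without library 16 to 0.42 without library 10 when 1 library was left out. The 10 Kupffer cell and macrophage markers, cells that also make CD36, summed to 3019 to 8762 rescaled reads in Pair vehicle, 3598 to 5251 in Pair IMC, 4980 to 6767 in EtOH vehicle and 3658 to 5797 in EtOH IMC, and their part in the Cd36 values was not tested.

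**Figure D2:**
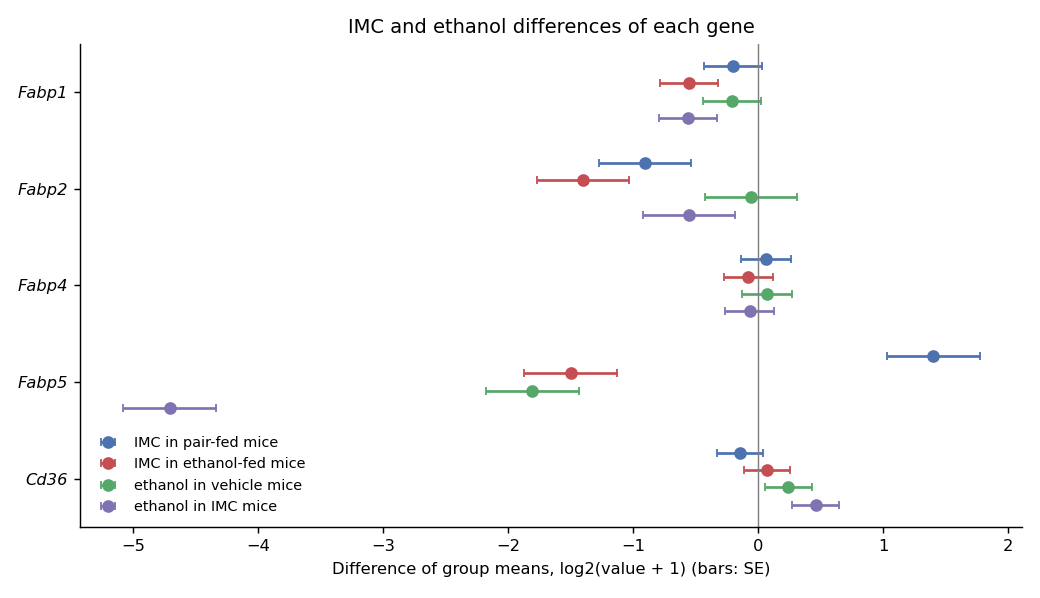
Log2 differences of group means with SE (bars) for the 5 genes, with IMC in pair-fed and ethanol-fed mice and with ethanol in vehicle and IMC mice. Fabp5 stands at 1.40, -1.5, -1.81 and -4.71, Fabp2 at -0.90 and -1.40 with IMC, and Fabp4 stays near 0.

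Compared per kilobase of the principal transcript, mean levels over the 16 libraries were 50353 for Fabp1, 785 for Fabp2, 657 for Fabp5, 567 for Cd36 and 131 for Fabp4. In Pair vehicle mice the order was Fabp1 (61174 ± 18773, SD), Fabp2 (1049 ± 61.6), Fabp5 (666 ± 469), Cd36 (533 ± 163) and Fabp4 (129.98 ± 40.6). Fabp5 and Cd36 overlapped in that group. In EtOH IMC Fabp5 was last, at 57.5 ± 12 per kilobase, below Fabp4 at 125 ± 3.32. Of the 6 other fatty acid binding protein genes, Fabp7, the brain type, was the only one tested, with a mean of 43.2 rescaled reads and adjusted p-values of 0.33 to 0.89 in the 4 comparisons. Fabp3, the muscle and heart type, had 57 of its 67 reads in library 11, the library with the muscle transcripts. Fabp6, the ileal type, had 1 read over all libraries.

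**Figure D3:**
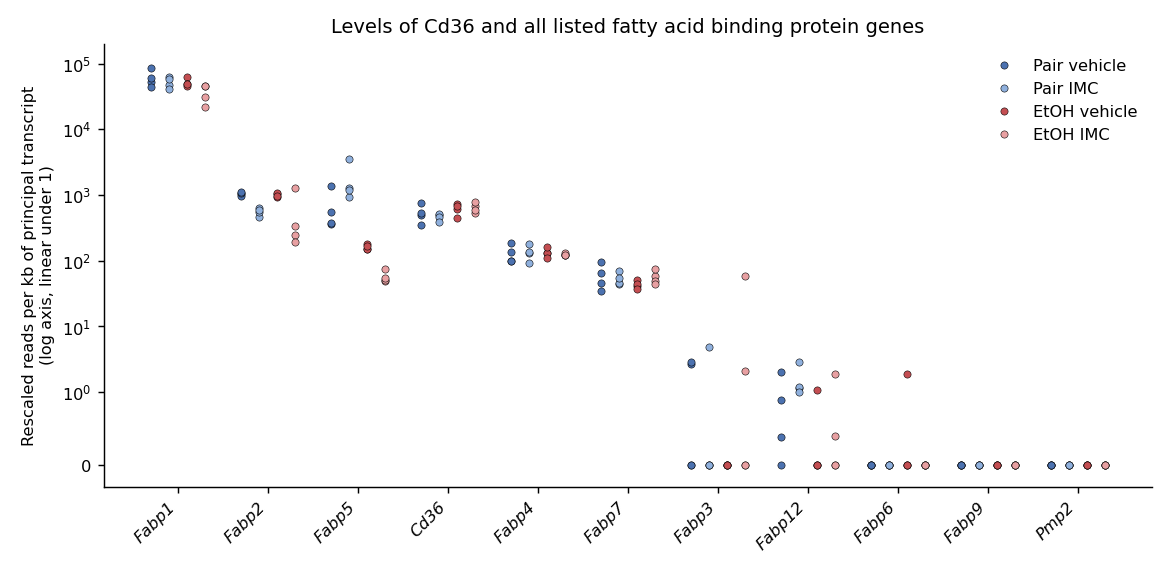
Rescaled reads per kilobase of principal transcript (log axis, linear under 1) of Cd36 and the 10 fatty acid binding protein genes listed, 4 mice per group. Fabp1 is highest, with a mean of 50353, and Fabp9 and Pmp2 sit at 0.

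Across all tested genes, IMC in pair-fed mice changed 9.47% of genes at an adjusted p under 0.05, 4.31% upward and 5.16% downward, and 14.3% of genes had groups that did not overlap. Of the 5 members 1, Fabp5, was called there and 1, Fabp2, had separate groups. With IMC in ethanol-fed mice 21.5% of genes were called, 10.4% higher and 11.1% lower, and 25.3% had separate groups, against 2 members called, Fabp2 and Fabp5, and 1 with separate groups, Fabp5. Ethanol in vehicle mice gave 11.9% of genes, 6.33% higher and 5.53% lower, with 19.0% separate, against 1 member called and separate, Fabp5. Ethanol in IMC mice gave 16.4%, 7.85% higher and 8.57% lower, with 19.2% separate, against 1 called member, Fabp5, and 2 separate, Fabp5 and Cd36. The difference of the IMC effect between diets was called for 1.11% of genes, 0.319% higher and 0.789% lower, and for 1 member, Fabp5. As the members were chosen with these contrasts known, nothing is read from their counts. The calls of ethanol depend on the scale, and on the deposited scale, where the median gene stood 0.19 higher with ethanol (log2), 2801 genes were higher and 199 lower in vehicle mice and 3183 higher and 441 lower in IMC mice, against 794 and 694, and 985 and 1075, on the rescaled values.

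The genes whose pattern over the 16 libraries was most like each member's were found by Pearson's correlation of log2(value + 1) among tested genes with a mean of at least 100, as a description with no test, since the groups and the reads of a library are shared. For Fabp5 the closest was Pltp, phospholipid transfer protein (r = 0.95, Spearman's rho 0.95), followed by Gramd1a (r = 0.92) and Man2c1 (r = 0.92). Pltp was 346 rescaled reads in Pair vehicle, 407 in Pair IMC, 216 in EtOH vehicle and 107 in EtOH IMC, the same order of groups as for Fabp5. For the deviations from group means r was 0.87 with Pltp and 0.28 with Man2c1. For Fabp1 the closest were Acaa2, a mitochondrial thiolase (r = 0.94), Decr1, a 2,4-dienoyl-CoA reductase of mitochondria (r = 0.93), and Rbpms2 (r = 0.91). Acaa2 was 9603, 8436, 8998 and 7761 rescaled reads in Pair vehicle, Pair IMC, EtOH vehicle and EtOH IMC. For Fabp2 they were Suclg1 (r = 0.92), Mthfs (r = 0.90) and Sult2a8, a hydroxysteroid sulfotransferase (r = 0.90), the last at 4084, 985, 3293 and 206 rescaled reads in these groups. In library 11, where Fabp2 was high, Sult2a8 was 623 against 66.1 to 70.1 in the other 3 EtOH IMC mice. For Cd36 they were Aldh1a1, a retinal dehydrogenase (r = 0.79), Extl1 (r = 0.79) and Slc39a9 (r = 0.77), and for Fabp4 the closest, AI987944, reached 0.69. Among the members themselves r was highest between Fabp1 and Fabp2 (0.68) and lowest between Fabp5 and Cd36 (-0.70, and -0.67 for deviations from group means).

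**Figure D4:**
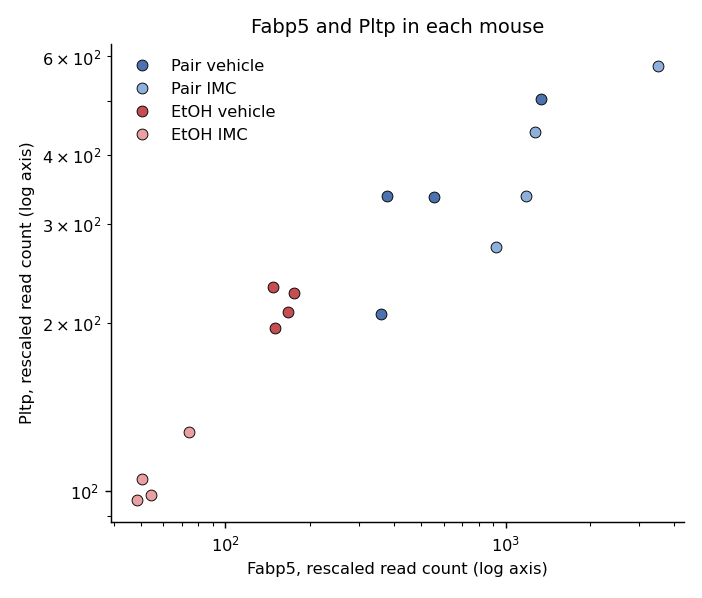
Fabp5 against Pltp in each of 16 mice, rescaled reads on log axes, by group. The 4 EtOH IMC mice lie at the lower left and the Pair mice at the upper right.

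Fatty acid transport proteins and acyl-CoA synthetases, which move fatty acids in and activate them with coenzyme A, were tested for 13 genes. With IMC in ethanol-fed mice 0 rose, 4 fell and 9 did not pass the test, beside 10.4% of all genes higher and 11.1% lower, and the median log2 difference was -0.27 (all genes -0.0015). Acss2, which activates acetate, fell by 1.38 on the log2 scale (SE 0.33, adjusted p = 0.0066), from 2465 ± 699 to 928 ± 195, and Slc27a1, a fatty acid transport protein, fell by 0.76 (SE 0.19, adjusted p = 0.0084). Slc27a5 and Acsl5 also fell. In pair-fed mice 0 rose and 1 of 13 fell, beside 4.31% of all genes higher and 5.16% lower. The 1 was Acsl3, a long-chain synthetase (-0.65, SE 0.18, adjusted p = 0.033, lost without library 16 of Pair vehicle or 2, 4 or 6 of Pair IMC). Ethanol changed 0 of the 13 in vehicle mice by limma, and 0 by edgeR or DESeq2, while 2 had an unadjusted p under 0.05. Of all genes 11.9% were called in that comparison by limma. On the deposited scale 2 of the 13 rose there. With ethanol in IMC mice 0 of the 13 rose and 4 fell, beside 7.85% of all genes higher and 8.57% lower. On the deposited scale 2 of the 13 rose and 3 fell. Among the 4 were Acss2 (-2.02, SE 0.33, adjusted p = 0.00068) and Acsl5 (-1.01, SE 0.15, adjusted p = 0.00028). The IMC effect on Acsl5 differed between diets by -0.88 (SE 0.21, adjusted p = 0.048), but this was not called by edgeR and was lost without 13 of the 16 libraries in turn.

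Acyl-CoA and sterol carriers do for acyl-CoA and cholesterol what the Fabps do for fatty acids. Stard4, a sterol carrier, fell with IMC in pair-fed (-0.54, SE 0.14, adjusted p = 0.022) and ethanol-fed mice (-0.64, SE 0.14, adjusted p = 0.0036). The first of these was lost without library 16 of Pair vehicle or 2 or 4 of Pair IMC. With IMC in pair-fed mice 1 of 13 genes fell and 0 rose, beside 4.31% of all genes higher and 5.16% lower. In ethanol-fed mice, with Pctp and Scp2, 3 of 13 fell and 0 rose, beside 10.4% higher and 11.1% lower. With ethanol Dbi, the acyl-CoA binding protein, fell in IMC mice (-0.68, SE 0.13, adjusted p = 0.0018) and Acbd4 rose in vehicle (0.61, SE 0.12, adjusted p = 0.0035) and IMC mice (0.60, SE 0.12, adjusted p = 0.0024). Among genes of lipoprotein lipolysis, Lipc, hepatic lipase, fell with IMC in pair-fed mice (-0.57, SE 0.13, adjusted p = 0.014, lost without library 4 or 6 of Pair IMC). In ethanol-fed mice Lipc fell by 0.95 (SE 0.13, adjusted p = 0.00013) and Lipg, endothelial lipase, by 0.96 (SE 0.22, adjusted p = 0.0051). Lpl, lipoprotein lipase, rose with ethanol in vehicle mice (0.46, SE 0.13, adjusted p = 0.029), and it was named after its value was seen because its groups overlapped.

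Of 22 nuclear receptors and factors that act on these genes, 2 rose and 2 fell with IMC in pair-fed mice. Of all genes 4.31% were higher and 5.16% lower there. With IMC in ethanol-fed mice 4 rose and 1 fell, beside 10.4% of all genes higher and 11.1% lower. With ethanol 1 rose and 3 fell in vehicle mice, beside 6.33% higher and 5.53% lower. In IMC mice 2 rose and 3 fell with ethanol, beside 7.85% higher and 8.57% lower. On the deposited scale 4 of the 22 rose and 1 fell with ethanol in vehicle mice, and 2 rose and 1 fell in IMC mice. Hnf4a, a hepatocyte factor, rose with IMC in pair-fed mice (0.71, SE 0.13, adjusted p = 0.0032) and in ethanol-fed mice (0.62, SE 0.13, adjusted p = 0.0030). Pparg rose with IMC in ethanol-fed mice (0.75, SE 0.16, adjusted p = 0.0037), from 99.0 ± 17.96 to 167 ± 27.01, and Ppara fell (-0.50, SE 0.14, adjusted p = 0.020, lost without library 5 or 7 of EtOH vehicle or 15 of EtOH IMC). Srebf1, the factor of lipid synthesis, fell with IMC in pair-fed mice (-0.79, SE 0.12, adjusted p = 0.00082) and rose with ethanol in IMC mice (0.82, SE 0.12, adjusted p = 0.00030). With ethanol Ppara fell in vehicle mice (-0.48, adjusted p = 0.038, groups overlapping) and in IMC mice (-0.54, adjusted p = 0.015, lost without library 6 of Pair IMC or 15 of EtOH IMC). Foxa3, a factor of hepatocyte genes, fell with ethanol in vehicle mice (-0.77, SE 0.11, adjusted p = 0.00053) and IMC mice (-0.42, adjusted p = 0.014), and rose with IMC in pair-fed (0.36, adjusted p = 0.042, groups overlapping) and ethanol-fed mice (0.71, adjusted p = 0.00027).

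Known PPAR-alpha targets, genes of fatty acid oxidation and fasting, were tested for 27 genes. With ethanol 8 fell, 0 rose and 19 did not pass the test in vehicle mice (median -0.12), beside 5.53% of all genes lower, and 11 fell, 0 rose and 16 did not pass in IMC mice (median -0.44, all genes 0.0035), beside 8.57% lower. The direction depends on the scale, as on deposited values 4 rose and 3 fell in vehicle mice and 1 rose and 5 fell in IMC mice. Pex11a, a peroxisome division factor, fell by 0.75 in vehicle mice (SE 0.12, adjusted p = 0.00098) and Ehhadh, a peroxisomal oxidation enzyme, fell by 0.81 in IMC mice (SE 0.19, adjusted p = 0.00998). With IMC in pair-fed mice 4 rose, among them Cyp4a14 (1.24, SE 0.30, adjusted p = 0.017), an omega-hydroxylase, and Ehhadh (0.73, SE 0.19, adjusted p = 0.026), and 1 fell, Acaa1a. Of all genes 4.31% were higher and 5.16% lower there. The calls of Cyp4a14 and Ehhadh were lost without library 12 of Pair vehicle or 4 or 6 of Pair IMC. In ethanol-fed mice with IMC 2 rose, Pex11a and Fgf21, and 4 fell, among them Acaa1a, the peroxisomal thiolase. Of all genes 10.4% were higher and 11.1% lower in that comparison. Fgf21, a fasting hormone, was chosen after its values were seen: it rose with IMC by 1.85 in pair-fed and 1.70 in ethanol-fed mice (log2), and with ethanol it fell by 1.51 in vehicle mice and fell by 1.66 in IMC mice, with groups that overlapped in each. Of 7 PPAR-gamma targets tested, 2 rose and 1 fell with ethanol in vehicle mice, beside 6.33% of all genes higher and 5.53% lower. On deposited values, where 8 were tested, 2 rose and 0 fell in vehicle mice and 1 rose and 3 fell in IMC mice. On the rescaled values 4 fell and 1 rose with ethanol in IMC mice, beside 8.57% of all genes lower and 7.85% higher. Pltp fell by 1.88 on the log2 scale (SE 0.22, adjusted p = 5.6e-05), Scd2, a fatty acid desaturase, rose by 1.30 (SE 0.18, adjusted p = 0.00022), and Plin4, a lipid droplet protein named after its value was seen because its groups overlapped, fell by 1.37 (SE 0.31, adjusted p = 0.0070). Fabp4, itself a PPAR-gamma target, was at -0.07.

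**Figure D5:**
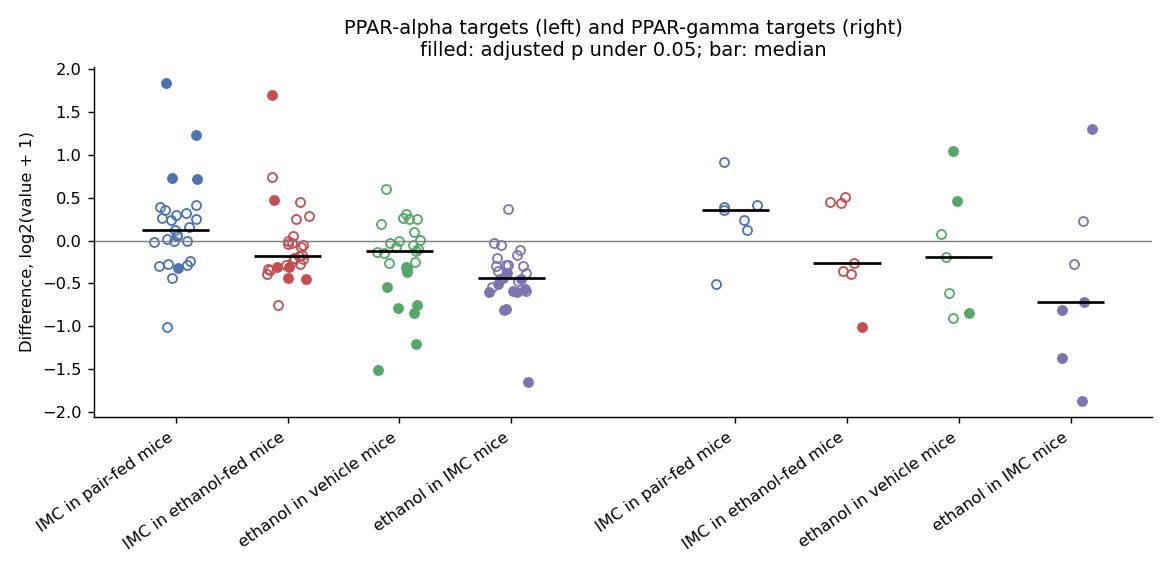
Log2 differences of PPAR-alpha targets (27 genes) and PPAR-gamma targets (7 genes) in 4 comparisons, members left out. Filled points passed an adjusted p under 0.05, and bars are medians. With ethanol in IMC mice the medians are -0.44 and -0.72.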

How the data were processed

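Liver RNA was measured in 16 mice. The deposited values are a normalized signal per gene, read counts divided by a size factor per library by the authors. Trim Galore, FastQC, STAR, edgeR and mm10 are named in the submitters' processing notes; the tool that counted reads is not given in the sources used here. All values were whole reads within 0.01. Rows repeated for an Ensembl ID (430 IDs) were used once. Values were rescaled by a median ratio over the 16 libraries, and log2(value + 1) was tested with limma 3.58.1 in R 4.3.3 with 4 group means, a mean-variance trend and Benjamini-Hochberg adjustment (threshold 0.05). Genes needed a value of 10 in 4 libraries. Within groups, pairs of libraries differed (chi-square over degrees of freedom of 5.89 to 47.4), so none was a duplicate. Each p-value measures spread between mice. The pipeline was tested on simulated data. Members and lists were chosen with earlier results of these data known. Named list genes are up to 2 largest rises and 2 falls per list and comparison with an adjusted p under 0.05 and no overlap of groups, and others are said to be chosen after their values were seen or are named to complete a count. Counts of 0 and single reads carry counting error as well as the spread between mice. Alternatives were edgeR 4.0.16, DESeq2 1.42.0, other scalings, pseudocounts of 0.1 and 5, filters and leaving out each library. The result of 1 named gene is not reported here.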

Additional observations from a re-analysis of the deposited data

Results flagged for a closer look

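A mouse far from the other 3 of its group was sought by the gap to the nearest value over the range (Dixon's ratio at 95%) in 192 groups of 4 mice (the 5 members and 43 other genes), and 10 were found; chance gives about 1 in 20. Fabp2 in EtOH IMC was 1257 in library 11 against 187 to 327 in the others. Fabp5 in Pair IMC was 3504 in library 8 against 926 to 1274. Sult2a8 in EtOH IMC was 623 in library 11 against 66.1 to 70.1. In library 8 of Pair IMC, Acss2 was 9107 against 2411 to 2977, Acsl5 was 8398 against 5054 to 5552 and Dbi was 7987 against 6526 to 6712. Acsl3 in Pair vehicle was 856 in library 16 against 509.6 to 521. Acsl5 in EtOH vehicle was 4922 in library 5 against 4441 to 4512. Lipg in EtOH vehicle was 259 in library 7 against 335 to 348. Stard4 in EtOH IMC was 1194 in library 15 against 1551 to 1587. The IMC effect on Acsl5 differed between diets by -0.88 (limma, SE 0.21, adjusted p = 0.048); it was not called by edgeR and was lost without 13 of the 16 libraries in turn.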

How the results depend on the processing

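No paired analysis was possible because the groups share no replicate numbers. Over 720 alternative values of the 25 member differences, 719 moved by less than the spread between mice. For Fabp2 in EtOH IMC that spread includes library 11. Values that turned sign are among the 719, such as 0.06 for Fabp2 with ethanol in IMC mice. That fit, edgeR without library 15, was chosen after seeing the data. The exception was Fabp1, whose difference of the IMC effect between diets was -0.78 without libraries 8, 11 and 16. Leaving out those libraries was also chosen after seeing the data. Of 1331 alternative values of named list genes, 112 were no longer called and 0 changed sign. Of 443 alternative list counts, 406 stayed within 1.5 times the main count. With edgeR (either scaling), and with edgeR without library 15, 1 member, Fabp5, was called for IMC in ethanol-fed mice, not 2; DESeq2 gave Fabp2 no adjusted p-value, so its members were not counted. For ethanol in IMC mice 2 members were called on deposited values and when only 8 libraries were fitted, and 3 without libraries 8, 11 and 16, which also gave 2 in pair-fed mice with IMC and 2 for the difference; edgeR without library 15 gave 0 for the difference. Leaving out 1 library gave 0 to 2 members for IMC in pair-fed mice, 2 for IMC in ethanol-fed mice, 1 for ethanol in vehicle mice, 1 to 2 for ethanol in IMC mice and 1 to 2 for the difference. The genes called then ranged from 537 to 1443, 1987 to 2822, 802 to 1595, 1364 to 2213 and 54 to 159 in that order. Fitting only 8 libraries called 691 genes for IMC in pair-fed mice. Deposited values called 3000 genes for ethanol in vehicle mice and 3624 in IMC mice. The difference was called for 80 genes with no filter, 82 with no trend, 339 with DESeq2 and 73 with edgeR without library 15, which called 1348 for ethanol in IMC mice. The cause was not tested.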
